A study of Mus musculus with 34 samples.

Results

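The livers of SIRT1intKO mice collected 24 hours after partial hepatectomy (PHx) were compared with livers of untreated SIRT1intKO mice (0 hours). The comparison used 13 of the 34 bulk RNA-seq libraries of the series, 7 at 24 hours and 6 at 0 hours, chosen by the genotype and time in their labels, and every gene with enough counts was described. SIRT1intKO mice carry a Villin promoter-driven Cre recombinase and loxP sites around an exon of *Sirt1*, so that the gut epithelium loses *Sirt1* while hepatocytes keep it. The WT mice, used here only to ask whether a change differed by genotype, were littermates with the floxed *Sirt1* allele and no Cre (6 libraries at 0 hours and 4 at 24 hours), and all animals were adult males of C57/Bl6 background. A further SIRT1intKO group, 6 hours after PHx (5 libraries), placed the 24-hour values in time. Animals at 0 hours had no operation, so the surgery and the loss of liver mass cannot be told apart, and the library names in the labels number the 0-hour livers in a series of their own, so handling of the libraries and PHx cannot be told apart either. The labels call the libraries biological replicates.

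After PHx, the remaining lobes enlarge, mainly through growth and division of their mature cells. Cytokines from macrophages, chiefly IL-6 acting through STAT3, prime hepatocytes within hours and drive the acute-phase response, then growth factors acting through EGFR and MET carry primed cells through G1 into DNA synthesis, which in the mouse follows more than a day after surgery. Intestinal bile acid sensing is coupled to this process because bile acids returning through the ileum and portal vein restrain their own synthesis in the liver, a control in which the nuclear receptor FXR and the ileal hormone FGF15 take part.

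Each library held between 14934069 and 23480492 counts among the 13 (medians 15138019 at 0 hours and 17695667 at 24 hours), and levels are given in CPM (a gene's counts relative to its library's total, adjusted by edgeR's TMM factors). Mitochondrial transcripts took 7.31 to 8.73% of counts at 0 hours and 4.51 to 7.82% at 24 hours. The hepatocyte identity of the tissue was plain at both times, with *Alb*, the serum albumin gene, at 35065 to 56283 CPM (median 45457) at 0 hours and 24239 to 47338 CPM (median 33724) at 24 hours. The hepatic level of *Sirt1* does not check the genotype, because the deletion is intestinal. Its level ranged from 9.48 to 16.3 CPM (median 10.8) at 0 hours and 6.92 to 13.5 CPM (median 7.87) at 24 hours, the groups overlapped, and the difference did not pass the test (log2 fold change -0.43 ± 0.20, SE, adjusted p = 0.0740).

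One library stood apart before any gene was examined singly. On the first principal component of the 1000 most variable genes, which held 56.3% of the variance, the 6 libraries of 0 hours and the 7 of 24 hours fell at opposite ends, except that replicate 5 of 24 hours lay near the livers of 6 hours. Over the genes called below, replicate 5 moved a median 54.6% as far from the 0-hour mean as the other 24-hour libraries did, against 92.2 to 122% for each of those. It moved in the same direction as the others for 3215 of 3440 genes. Its labels place it at 24 hours and it was kept, and values without it are given wherever they differ enough to matter. What set it apart was not tested.

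**Figure D1:**
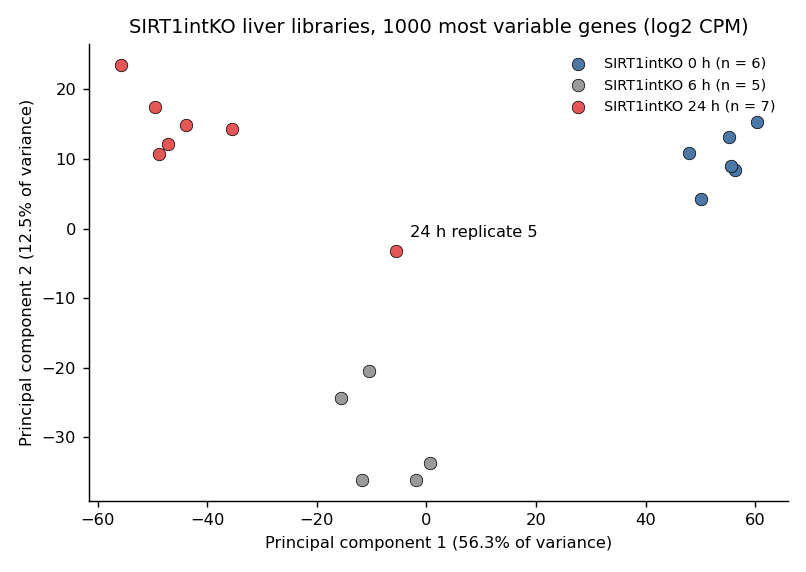
Principal components of log2 CPM over the 1000 most variable genes in SIRT1intKO livers, with the first component (56.3% of variance) on the horizontal axis, the second (12.5%) on the vertical axis, and each point 1 library coloured by time after PHx. The 6 livers of 0 hours sit at one end of the first component and 6 of the 7 livers of 24 hours at the other, while the named replicate 5 of 24 hours lies level with those of 6 hours on the first component and apart from them on the second.

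Wide changes separated the livers of 24 hours from those of 0 hours, in both directions and in about equal number. A gene was called when its adjusted p (edgeR quasi-likelihood test, Benjamini-Hochberg) was under 0.05 and its log2 fold change was beyond 1 in either direction. Of 14980 genes tested, 3440 were called (23%), 1784 higher at 24 hours (11.9%) and 1656 lower (11.1%), and these are the shares against which the counts of each gene group should be read. Changes over 4-fold numbered 733 upward and 551 downward, and for 3295 genes (22%) no 24-hour library overlapped any 0-hour library. The median log2 fold change over all tested genes was 0.04. Without replicate 5 of 24 hours, 3729 of 14939 genes were called (25%), and they included 1742 of the 1784 higher and 1616 of the 1656 lower genes. In whole tissue, fewer cells of a type and less RNA per cell cannot be told apart, for these and all later values.

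Several of the genes with the highest increases had few or no counts in the resting liver. *Sprr1a*, a small proline-rich protein of stressed epithelia, had no count in any 0-hour library and 1.78 to 19.5 CPM (median 4.99) at 24 hours, which is at least 239-fold higher when 3 counts over the 0-hour group are taken as the floor. The metallothioneins *Mt4* and *Mt3* were likewise at 0 in all 6 livers of 0 hours and were at least 93.5-fold and 73.9-fold higher, and *Meltf*, encoding the iron-binding surface protein melanotransferrin, at least 61.1-fold. *Cacna1b*, the pore subunit of the N-type calcium channel, had 1 count in all 0-hour libraries together and 1120 at 24 hours, a ratio of 717 (95% counting interval 128 to 28400.0). *Nos2*, inducible nitric oxide synthase, went from 2 counts to 508, a ratio of 163 (95% counting interval 44.8 to 1350.0), and its fitted log2 fold change fell from 7.21 to 6.46 without replicate 2 of 24 hours. Among genes with more counts at 0 hours, the aldo-keto reductase *Akr1b7* ranged from 0.0655 to 0.414 CPM (median 0.190) at 0 hours and 10.6 to 77.4 CPM (median 41.1) at 24 hours (log2 fold change 7.66 ± 1.23, SE, adjusted p = 8.18e-06). *Fam83a*, of a family of signalling scaffolds, ranged from 0.0592 to 0.186 CPM (median 0.0660) and 3.57 to 31.7 CPM (median 13.2) (log2 fold change 7.14 ± 0.74, SE, adjusted p = 1.04e-08). These genes were picked by a rule that required no overlap between the 0-hour and 24-hour livers, so their separation follows from the choice. In replicate 5 of 24 hours *Mt4*, *Mt3* and *Meltf* were at 0.0469, 0.0938 and 0.0469 CPM, so their bounds describe the group and not that liver.

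The genes with the largest decreases included enzymes, a transporter, a protease inhibitor and an antisense transcript. *Hsd3b5*, a steroid reductase of adult male mouse liver, ranged from 207 to 312 CPM (median 268) at 0 hours and from 0.114 to 7.79 CPM (median 0.294) at 24 hours (log2 fold change -7.59 ± 0.86, SE, adjusted p = 5.37e-08), and the highest 24-hour value was that of replicate 5, without which the log2 fold change was -9.93. *Car3*, carbonic anhydrase 3, was at 1699.9 to 3274 CPM (median 2699) at 0 hours and 2.02 to 36.9 CPM (median 23.54) at 24 hours (log2 fold change -6.86 ± 0.81, SE, adjusted p = 9.64e-08). The erythroid-type carbonic anhydrase *Car1* fell as well (log2 fold change -6.08 ± 0.62, SE, adjusted p = 9.21e-09). So did *Ces2b*, a carboxylesterase (log2 fold change -6.74 ± 0.93, SE, adjusted p = 9.77e-07, and -7.44 without replicate 1), *Selenbp2*, a selenium-binding protein (log2 fold change -6.13 ± 0.73, SE, adjusted p = 9.76e-08), and *Inmt*, an indole methyltransferase (log2 fold change -5.30 ± 0.68, SE, adjusted p = 2.98e-07). *Slc17a8*, a vesicular glutamate transporter, *Serpina9*, a serine protease inhibitor, and *Tbx3os1*, transcribed opposite the pericentral transcription factor gene *Tbx3*, had log2 fold changes of -5.13, -5.11 and -5.17, the last being -6.77 and *Serpina9* -6.92 without replicate 5. Whether counting used strand is not given in the sources used here, so reads of *Tbx3os1* and *Tbx3* may be mixed.

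Acute-phase proteins, which hepatocytes secrete in response to IL-6, rose almost without exception. Of 24 acute-phase genes tested, 21 rose and 1 fell (*Saa4*, -1.18), with a median log2 fold change of 1.89 against 0.04 for all genes, and the counts were the same without replicate 5. Many acute-phase promoters are known to bind STAT3, so the reference promoters (RefSeq, GRCm38.p6, 250 bases before to 50 after the start, 300 in all) were searched on both strands for the STAT core TTCNNNGAA, written with N for any base. A gene was counted once, where any of its promoters held a match. The core occurred for 901 of 10626 tested genes with a promoter in the table (8.48%) and for 6 of the 18 such acute-phase genes called higher (33.3%). The promoters of 4 of those 6 are shown, because these genes moved together, with the match in capitals and the rest in lower case. These promoters each hold a single match, are listed by falling log2 fold change of their genes and do not stand for all 6. They are on GRCm38.p6, whereas the counts were made on GRCm39, and a match is a description of letters and not a site shown to be used. *Apcs* lies at chr1:172895005-172895304 on the minus strand, *Steap4* at chr5:7960222-7960521 on the plus strand, *Hamp* at chr7:30943980-30944279 on the minus strand and *Itih4* at chr14:30886226-30886525 on the plus strand.
Apcs: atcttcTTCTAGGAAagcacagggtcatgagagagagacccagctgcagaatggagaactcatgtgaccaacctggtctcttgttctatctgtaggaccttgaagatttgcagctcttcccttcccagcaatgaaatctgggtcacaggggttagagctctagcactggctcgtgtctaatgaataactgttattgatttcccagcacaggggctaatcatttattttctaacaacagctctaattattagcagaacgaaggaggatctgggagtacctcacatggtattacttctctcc
Steap4: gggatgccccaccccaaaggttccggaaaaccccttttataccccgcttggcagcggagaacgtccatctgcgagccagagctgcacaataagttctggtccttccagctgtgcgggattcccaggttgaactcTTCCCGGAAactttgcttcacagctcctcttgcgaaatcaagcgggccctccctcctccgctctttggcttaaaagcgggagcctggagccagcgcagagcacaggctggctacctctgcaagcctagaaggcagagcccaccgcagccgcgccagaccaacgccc
Hamp: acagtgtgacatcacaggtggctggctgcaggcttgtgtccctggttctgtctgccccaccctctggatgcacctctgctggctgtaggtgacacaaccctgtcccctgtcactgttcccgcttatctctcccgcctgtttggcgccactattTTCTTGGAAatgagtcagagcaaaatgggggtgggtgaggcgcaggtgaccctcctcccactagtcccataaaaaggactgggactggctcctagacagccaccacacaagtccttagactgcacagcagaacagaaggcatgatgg
Itih4: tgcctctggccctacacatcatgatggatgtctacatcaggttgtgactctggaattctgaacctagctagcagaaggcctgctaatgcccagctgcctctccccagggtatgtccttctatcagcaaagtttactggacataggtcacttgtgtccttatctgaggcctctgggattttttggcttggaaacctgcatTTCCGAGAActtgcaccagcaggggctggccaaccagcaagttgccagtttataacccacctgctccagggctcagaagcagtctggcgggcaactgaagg

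These promoters belong to genes of differing size of response. *Apcs*, serum amyloid P component, had a log2 fold change of 3.53 ± 0.36 (SE, adjusted p = 8.86e-09), and its match lies 244 bases before the start. *Steap4*, a metalloreductase, rose by 2.26 ± 0.50 on the log2 scale (match 116 bases before the start). *Hamp*, the iron hormone hepcidin, rose by 1.76 ± 0.38 (match 97 bases before the start), whereas its close paralog *Hamp2* fell (-3.75 ± 0.58), with the caution that reads of such copies can be split between them. *Itih4*, an inter-alpha-trypsin inhibitor chain, rose by 1.44 ± 0.17 (match 51 bases before the start).

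*Lcn2*, the siderophore-binding protein lipocalin 2, had the largest change of the group. It ranged from 4.97 to 46.0 CPM (median 13.8) at 0 hours and from 1952 to 13756 CPM (median 5561) at 24 hours, and the log2 fold change was 8.51 ± 0.64 (SE, adjusted p = 4.99e-11). *Saa1*, serum amyloid A1, ranged from 99.8 to 940.5 CPM (median 481) at 0 hours, 10255 to 21650.3 CPM (median 15367) at 6 hours and 5989 to 12302 CPM (median 8815) at 24 hours (log2 fold change 4.26 ± 0.54, SE, adjusted p = 2.54e-07). Thus 24-hour livers were above all resting livers and mostly below the 6-hour livers for *Saa1*, and its difference from 6 hours was -0.79 (adjusted p = 0.221). *Saa1* and *Saa2*, like the *Orm* genes, are near-identical copies whose shares of reads are uncertain.

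Genes of IL-6 and STAT3 signalling, receptors and targets alike, behaved differently from one another. Of 15 STAT3 targets and IL-6 family receptors tested, 4 rose and 2 fell, with a median of 0.12. *Socs3*, the feedback inhibitor that STAT3 induces, ranged from 11.3 to 174 CPM (median 30.3) at 0 hours and 42.3 to 179 CPM (median 64.7) at 24 hours, the groups overlapped, and the test was not passed (log2 fold change 0.57 ± 0.50, SE, adjusted p = 0.353). That result turned on replicate 3 of 0 hours at 174 CPM, without which the log2 fold change was 1.38 (adjusted p = 0.0184). The receptors of this family moved in opposite directions. *Osmr*, the oncostatin M receptor subunit, rose (log2 fold change 2.46 ± 0.33, SE, adjusted p = 6.10e-07), and *Lifr*, the leukaemia inhibitory factor receptor, fell, at 329 to 517 CPM (median 415) at 0 hours and 35.95 to 105 CPM (median 45.1) at 24 hours (log2 fold change -3.00 ± 0.27, SE, adjusted p = 1.11e-09). The shared subunit *Il6st* (0.12) and *Il6ra* (-0.50) were not called, and neither was *Stat3* itself (0.61). Members of a list other than its lead gene and its largest change, such as these receptors, were chosen for naming after their values were seen.

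Genes of growth factors rose and those of their main receptors did not. Of 16 EGFR and MET ligands and receptors, 8 rose and 1 fell (2 without replicate 5), and the risers included the EGFR ligands *Areg*, *Ereg*, *Hbegf*, *Btc* and *Tgfa* and 1 receptor, *Plaur*, which binds urokinase (3.94). *Areg*, amphiregulin, had 1 count over all 0-hour libraries and 126 at 24 hours, a ratio of 80.7 (95% counting interval 14.2 to 3210.0). *Hbegf*, heparin-binding EGF-like growth factor, rose from 0.999 ± 0.452 CPM (mean ± SD, n = 6) to 9.11 ± 5.22 CPM (n = 7), with a log2 fold change of 3.18 ± 0.78 (SE). *Hgf*, the MET ligand made by stellate and endothelial cells, ranged from 0.721 to 1.80 CPM (median 1.41) at 0 hours and 1.64 to 7.41 CPM (median 3.79) at 24 hours (log2 fold change 1.52 ± 0.29, SE, adjusted p = 9.29e-05). *Egfr* fell (log2 fold change -1.14 ± 0.22, SE, adjusted p = 8.88e-05), and *Met* had a log2 fold change of -0.03 and was not called.

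In the growth hormone axis, 6 of 17 genes fell and 1 rose. *Igfals*, the acid-labile subunit that holds IGF1 in the circulation, ranged from 101 to 154 CPM (median 117) at 0 hours and 5.48 to 64.7 CPM (median 6.74) at 24 hours (log2 fold change -3.01 ± 0.54, SE, adjusted p = 3.42e-05, and -4.13 without replicate 5). *Ghr*, the growth hormone receptor, fell (log2 fold change -2.59 ± 0.25, SE, adjusted p = 3.87e-09). *Igf1* itself ranged from 521 to 792 CPM (median 539.7) at 0 hours and 222 to 785 CPM (median 411) at 24 hours (log2 fold change -0.56 ± 0.19, SE, adjusted p = 0.0145), which does not reach the 2-fold threshold. *Igfbp1*, the stress-induced IGF-binding protein, was the one riser (log2 fold change 1.92 ± 0.51, SE, adjusted p = 0.00247).

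The G1 cyclin gene *Ccnd1* rose, and most other genes of the cell cycle were not called. *Ccnd1*, cyclin D1, which commits hepatocytes to the cycle, ranged from 8.52 to 28.997 CPM (median 12.1) at 0 hours, 19.4 to 88.9 CPM (median 44.8) at 6 hours and 64.1 to 159 CPM (median 116) at 24 hours (log2 fold change 2.95 ± 0.47, SE, adjusted p = 8.14e-06), with no overlap between 0 and 24 hours. Of 18 G1 cyclins, kinases and inhibitors, 5 rose and 0 fell (1 fell without replicate 5). The risers were *Ccnd1*, cyclin E1 (*Ccne1*, 2.97), *E2f2* (1.298) and 2 inhibitors, *Cdkn2b*, encoding p15 (log2 fold change 2.99 ± 0.61, SE, adjusted p = 0.000170), and *Cdkn1a*, encoding p21. *Cdkn1a* ranged from 27.8 to 95.0 CPM (median 59.0) at 0 hours and 76.8 to 166 CPM (median 115) at 24 hours, the groups overlapped, and its log2 fold change of 1.04 ± 0.31 (adjusted p = 0.00648) sat at the fold threshold. It dropped under that threshold without any of 4 libraries, replicates 4 and 7 of 24 hours (0.95 and 0.97) and replicates 4 and 6 of 0 hours (0.88 and 0.99).

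DNA replication genes were split. Of 30 tested, 7 rose and 2 fell (5 and 2 without replicate 5), and the median log2 fold change was 0.25. *Uhrf1*, a maintenance methylation factor (1.62 ± 0.49), *Chaf1b*, a histone chaperone subunit (1.52 ± 0.36), and *Mcm5*, a helicase subunit (1.46 ± 0.35), rose. *Mcm10*, the replication initiation factor that leads the list, was at 68.8 to 138 CPM (median 112) at 0 hours, 8.73 to 37.3 CPM (median 20.7) at 6 hours and 1.76 to 17.1 CPM (median 2.71) at 24 hours. Its log2 fold change was -4.51 ± 0.54 (SE, adjusted p = 1.00e-07) and -5.34 without replicate 5. Thymidine kinase 1 (*Tk1*) was the other that fell (log2 fold change -3.10 ± 0.38, SE, adjusted p = 1.72e-07). *Pcna*, the sliding clamp, had a log2 fold change of 0.32 and was not called.

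For mitosis, 19 of 28 listed genes had enough counts to test, 0 rose and 1 fell, with a median of -0.50. *Mki67*, the proliferation marker Ki-67, ranged from 0.986 to 2.36 CPM (median 1.27) at 0 hours and 0.301 to 2.27 CPM (median 1.03) at 24 hours, with overlapping groups (log2 fold change -0.41 ± 0.45, SE, adjusted p = 0.458). *Birc5*, survivin of the chromosomal passenger complex, was the 1 member called (log2 fold change -1.59 ± 0.44, SE, adjusted p = 0.00331), and 2 to 3 members were called without replicate 5 or 7 of 24 hours, or replicate 2 or 4 of 0 hours. In the same reference promoters, TTTGAA, the core of the cell cycle homology region, occurred for 12 of 14 mitosis genes (85.7%), 4 of 25 DNA replication genes (16%) and 1561 of 10626 genes overall (14.7%). CCAAT occurred for 12 of the 14, 16 of the 25 (64%) and 4536 overall (42.7%).

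**Figure D2:**
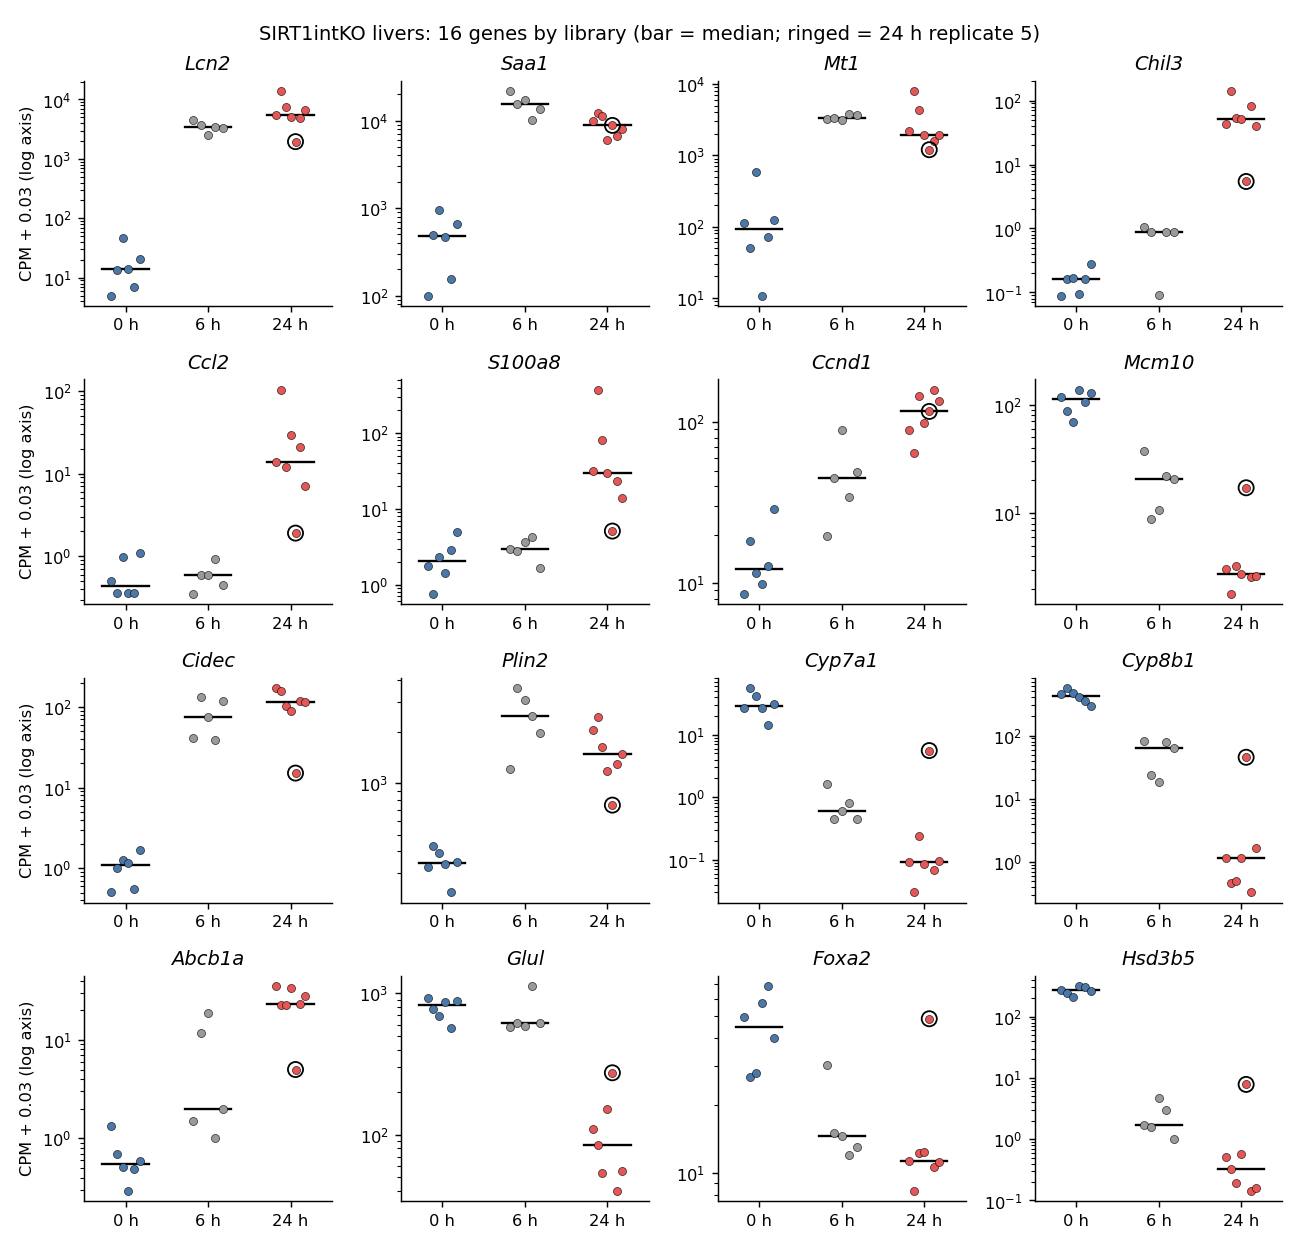
CPM plus 0.03 on a log axis of 16 named genes in each SIRT1intKO liver by hours after PHx (0, 6 and 24), with each point 1 library, bars at the group median and replicate 5 of 24 hours ringed. *Lcn2*, *Chil3*, *Plin2* and *Cidec* at 24 hours lie wholly above 0 hours, *Cyp7a1*, *Cyp8b1* and *Hsd3b5* wholly below, and *Foxa2* overlaps only through the ringed library.

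Genes of the first hours after injury were divided at 24 hours. Of 15 immediate-early genes, 7 rose and 0 fell. *Fosl1*, an AP-1 subunit, had 3 counts over all 0-hour libraries and 651 at 24 hours, a ratio of 139 (95% counting interval 47.3 to 676). *Atf3* (log2 fold change 4.05 ± 0.69, SE, adjusted p = 1.72e-05) and *Ier3* (log2 fold change 4.16 ± 0.91, SE, adjusted p = 0.000402), both induced by stress, also rose. *Myc* ranged from 4.93 to 16.5 CPM (median 9.55) at 0 hours and 6.76 to 26.1 CPM (median 14.5) at 24 hours and did not pass the test (log2 fold change 0.68 ± 0.50, SE, adjusted p = 0.259), and the log2 fold changes of *Fos* (-0.85) and *Egr1* (-1.01) were negative and not called.

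The integrated stress response, in which phosphorylated eIF2alpha favours translation of ATF4, rose in most of its members. Of 20 of its genes, 13 rose and 0 fell (1 fell without replicate 5), with a median of 1.19. *Trib3*, a pseudokinase that feeds back on ATF4, ranged from 1.74 to 5.25 CPM (median 4.10) at 0 hours and 7.79 to 51.7 CPM (median 17.02) at 24 hours (log2 fold change 2.56 ± 0.48, SE, adjusted p = 5.83e-05), with no overlap. *Fgf21*, the fasting and stress hormone, ranged from 0.0663 to 1.58 CPM (median 0.271) and 2.16 to 32.4 CPM (median 16.5) (log2 fold change 4.96 ± 0.80, SE, adjusted p = 9.55e-06, and 5.71 without replicate 2 of 0 hours). *Slc7a11*, the cystine importer, went from 1 count to 453, a ratio of 290.0 (95% counting interval 51.8 to 11500.0). The serine synthesis enzymes *Psat1* (log2 fold change 6.71 ± 0.86, SE, adjusted p = 3.29e-07) and *Phgdh* (log2 fold change 4.69 ± 0.82, SE, adjusted p = 2.83e-05) rose too.

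The endoplasmic reticulum arm was quieter. Of 21 chaperone and unfolded-protein genes, 1 rose and 1 fell. *Hspa5*, encoding BiP, ranged from 655 to 1883 CPM (median 1218) at 0 hours and 1200.1 to 1882 CPM (median 1322) at 24 hours (log2 fold change 0.24 ± 0.24, SE, adjusted p = 0.404) and was not called. The riser was *Eif2ak3*, encoding the kinase PERK (log2 fold change 1.14 ± 0.19, SE, adjusted p = 1.84e-05). *Herpud1*, at the threshold with a log2 fold change of -1.0012, was the one that fell, and 1 of the 2 genes was called without replicate 2, 4 or 6 of 24 hours or replicate 2 or 3 of 0 hours.

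Among p53 targets, 5 of 19 rose and 0 fell, and only 2 were called without replicate 4 of 0 hours. *Tnfrsf10b*, a TRAIL death receptor, changed most (log2 fold change 3.06 ± 0.56, SE, adjusted p = 4.53e-05). *Mdm2*, the p53 ubiquitin ligase that p53 induces, did not pass the test (log2 fold change 0.28 ± 0.16, SE, adjusted p = 0.141). For ribosome biogenesis, no gene of 28 was called, although 18 had an adjusted p under 0.05 with no fold threshold, and the median log2 fold change was 0.38. *Ncl*, nucleolin, ranged from 126 to 142 CPM (median 135) at 0 hours and 154 to 243 CPM (median 201) at 24 hours (log2 fold change 0.54 ± 0.15, SE, adjusted p = 0.00396), without overlap and below 2-fold.

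Oxidative and metal defence showed both directions. *Hmox1*, haem oxygenase 1, rose (log2 fold change 2.47 ± 0.47, SE, adjusted p = 7.13e-05), although the groups overlapped. *Hsph1*, a heat shock co-chaperone, fell (log2 fold change -1.44 ± 0.41, SE, adjusted p = 0.00400). Of 16 such genes, 5 rose and 3 fell. *Mt1*, metallothionein 1, ranged from 10.7 to 575 CPM (median 91.3) at 0 hours, 3158 to 3851 CPM (median 3391) at 6 hours and 1199 to 7939.9 CPM (median 1939) at 24 hours (log2 fold change 4.26 ± 0.76, SE, adjusted p = 3.47e-05). The wide 0-hour range came from replicate 3, without which the log2 fold changes of *Mt1* and *Mt2* were 5.36 and 6.11, against 4.26 and 4.60 with it.

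Genes of bile acid synthesis fell with no member rising. Of 18 genes for synthesis and its control by FXR, 10 fell, with a median of -1.27, and the counts were the same without replicate 5. *Cyp7a1*, the rate-limiting enzyme of the classical pathway, ranged from 14.5 to 55.9 CPM (median 28.7) at 0 hours, 0.419 to 1.603 CPM (median 0.566) at 6 hours and 0 to 5.54 CPM (median 0.0602) at 24 hours (log2 fold change -5.21 ± 0.92, SE, adjusted p = 2.98e-05). *Cyp8b1*, which directs synthesis to cholic acid, ranged from 288 to 563 CPM (median 426) at 0 hours, 18.6 to 82.0 CPM (median 64.0) at 6 hours and 0.305 to 45.3 CPM (median 1.14) at 24 hours (log2 fold change -5.86 ± 1.07, SE, adjusted p = 4.68e-05). For both genes the top 24-hour value was that of replicate 5, and without it the log2 fold changes were -8.68 and -8.90. The alternative-pathway enzymes *Cyp7b1* (log2 fold change -3.52 ± 0.56, SE, adjusted p = 7.86e-06) and *Cyp27a1* (log2 fold change -1.83 ± 0.21, SE, adjusted p = 5.92e-08) fell, as did *Nr1h4*, the gene of FXR (log2 fold change -1.10 ± 0.26, SE, adjusted p = 0.000692). *Nr0b2*, the FXR-induced repressor SHP (-0.03), and the FGF15 receptor genes *Fgfr4* (0.00) and *Klb* (-0.87) were not called.

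Transporters of bile acids moved in both directions. The uptake carriers of the sinusoidal membrane that fell included *Slc10a1*, encoding NTCP (log2 fold change -1.76 ± 0.27, SE, adjusted p = 4.84e-06), *Slco1a1* (log2 fold change -3.87 ± 0.60, SE, adjusted p = 5.21e-06) and *Slco1b2* (log2 fold change -2.04 ± 0.46, SE, adjusted p = 0.000529). *Abcb11*, the canalicular bile salt export pump, ranged from 462 to 509.9 CPM (median 492) at 0 hours and 263 to 608 CPM (median 366) at 24 hours and did not pass the test (log2 fold change -0.35 ± 0.24, SE, adjusted p = 0.217). *Abcb4*, the phospholipid exporter, rose (log2 fold change 1.42 ± 0.30, SE, adjusted p = 0.000289). The largest rises were those of *Slc51b*, a subunit of the basolateral bile acid efflux carrier OST, and *Abcb1a*, a multidrug exporter. *Slc51b* ranged from 0.478 to 1.80 CPM (median 0.564) at 0 hours and 6.66 to 88.2 CPM (median 33.9) at 24 hours (log2 fold change 5.55 ± 0.95, SE, adjusted p = 1.90e-05). *Abcb1a* ranged from 0.265 to 1.302 CPM (median 0.518) and 4.97 to 34.9 CPM (median 23.2) (log2 fold change 5.26 ± 0.70, SE, adjusted p = 6.09e-07), with replicate 5 the lowest at 24 hours. Of 20 genes in all, 3 rose and 5 fell (4 and 6 without replicate 5).

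Of the 38 lists of biological function, drug-metabolizing enzymes held the most genes that fell. Of 40 cytochrome P450, conjugation and esterase genes, 24 fell and 3 rose, with a median of -1.47. *Cyp2e1*, the ethanol-inducible P450 of pericentral hepatocytes, ranged from 4473 to 6404 CPM (median 4832) at 0 hours and 293 to 1587 CPM (median 724) at 24 hours (log2 fold change -2.63 ± 0.35, SE, adjusted p = 5.36e-07). *Cyp1a2* (log2 fold change -3.66 ± 0.41, SE, adjusted p = 4.33e-08) and the glucuronosyltransferase *Ugt2b1* (log2 fold change -4.17 ± 0.48, SE, adjusted p = 5.55e-08) also fell. *Cyp2b10*, the classical target of the receptor CAR, had the largest change of the 3 risers (log2 fold change 3.37 ± 0.68, SE, adjusted p = 0.000157). Many genes of these families are close copies, and the split of reads among them is uncertain.

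Many genes of ammonia and amino acid handling fell, and no member rose. Of 12 urea cycle and ammonia genes, 6 fell (8 without replicate 5), and of 39 amino acid breakdown genes 18 fell (23 without it), with medians of -1.17 and -0.99. *Glul*, the glutamine synthetase that clears ammonia beside the central vein, ranged from 567 to 919 CPM (median 824) at 0 hours, 578 to 1119.5 CPM (median 619) at 6 hours and 40.2 to 274 CPM (median 85.0) at 24 hours (log2 fold change -2.83 ± 0.38, SE, adjusted p = 7.74e-07). *Otc*, ornithine transcarbamylase, fell (log2 fold change -1.95 ± 0.26, SE, adjusted p = 4.58e-07). *Cps1*, which catalyses the first step of the urea cycle, ranged from 1505 to 2980.2 CPM (median 2444) at 0 hours and 835 to 1932 CPM (median 1096) at 24 hours (log2 fold change -0.90 ± 0.28, SE, adjusted p = 0.00752), short of 2-fold, and passed it without replicate 5 (-1.03). In amino acid breakdown, *Afmid* of the tryptophan pathway fell most (log2 fold change -3.60 ± 0.40, SE, adjusted p = 3.64e-08). *Tat*, tyrosine aminotransferase, had a log2 fold change of 0.02 (adjusted p = 0.955).

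Among lipid genes, those of uptake and lipid droplets rose more often than they fell, and those of lipogenesis fell more often than they rose. *Cidec*, which fuses lipid droplets, ranged from 0.473 to 1.68 CPM (median 1.06) at 0 hours and 15.1 to 172 CPM (median 116) at 24 hours (log2 fold change 6.78 ± 0.73, SE, adjusted p = 2.30e-08). *Plin2*, the coat protein of hepatocyte droplets, ranged from 230.1 to 430.1 CPM (median 342) and 745 to 2429 CPM (median 1486) (log2 fold change 2.17 ± 0.30, SE, adjusted p = 1.15e-06). Neither overlapped between the groups, and of 23 uptake and droplet genes 10 rose and 3 fell. Of 21 lipogenic genes, 9 fell and 1 rose. *Srebf1*, the lipogenic transcription factor, fell (log2 fold change -1.39 ± 0.20, SE, adjusted p = 2.26e-06), whereas *Fasn*, fatty acid synthase, had a log2 fold change of 0.24 and was not called.

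Many cholesterol synthesis genes rose. Of 23 genes, 10 rose and 1 fell (12 and 1 without replicate 5). *Sqle* (log2 fold change 1.67 ± 0.38, SE, adjusted p = 0.000628) and *Lss* (log2 fold change 1.72 ± 0.35, SE, adjusted p = 0.000177), which act in turn on squalene, were among those that rose. Each of these changes was modest, and none of the 11 calls held when the test itself was set against a 2-fold change (edgeR glmTreat).

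Fatty acid oxidation genes were evenly divided, 4 of 30 higher and 4 lower. *Cpt1a*, the carnitine transferase that admits fatty acids to mitochondria, had a log2 fold change of 0.46 (adjusted p = 0.0170), below 2-fold. Of 18 apolipoprotein genes, 2 rose and 1 fell (2 and 2 without replicate 5), and 5 or 6 in all were called without replicate 1 or 2 of 24 hours or replicate 2 of 0 hours. *Apoa4*, an apolipoprotein of lipid export, ranged from 115 to 231 CPM (median 129) at 0 hours and 2356 to 6580.2 CPM (median 3483) at 24 hours (log2 fold change 4.69 ± 0.49, SE, adjusted p = 1.15e-08), whereas *Apoa1* did not pass the test (log2 fold change 0.05 ± 0.19, SE, adjusted p = 0.831). Among 21 genes of glucose metabolism, 3 rose and 4 fell (4 and 5 without replicate 5). *G6pc1*, the glucose-releasing phosphatase, ranged from 158 to 797 CPM (median 271) at 0 hours and 6.94 to 107 CPM (median 17.7) at 24 hours (log2 fold change -3.71 ± 0.63, SE, adjusted p = 1.77e-05, and -4.57 without replicate 5), and *Pkm*, the pyruvate kinase of proliferating and non-parenchymal cells, rose (log2 fold change 1.95 ± 0.25, SE, adjusted p = 3.76e-07). No respiratory chain subunit of 32 was called, with a median of -0.38, and 2 of 18 sirtuin and NAD genes fell, of which *Sirt3*, the mitochondrial deacetylase, changed more (log2 fold change -1.37 ± 0.20, SE, adjusted p = 2.12e-06). That pair was 1 to 4 calls when single libraries were left out.

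**Figure D3:**
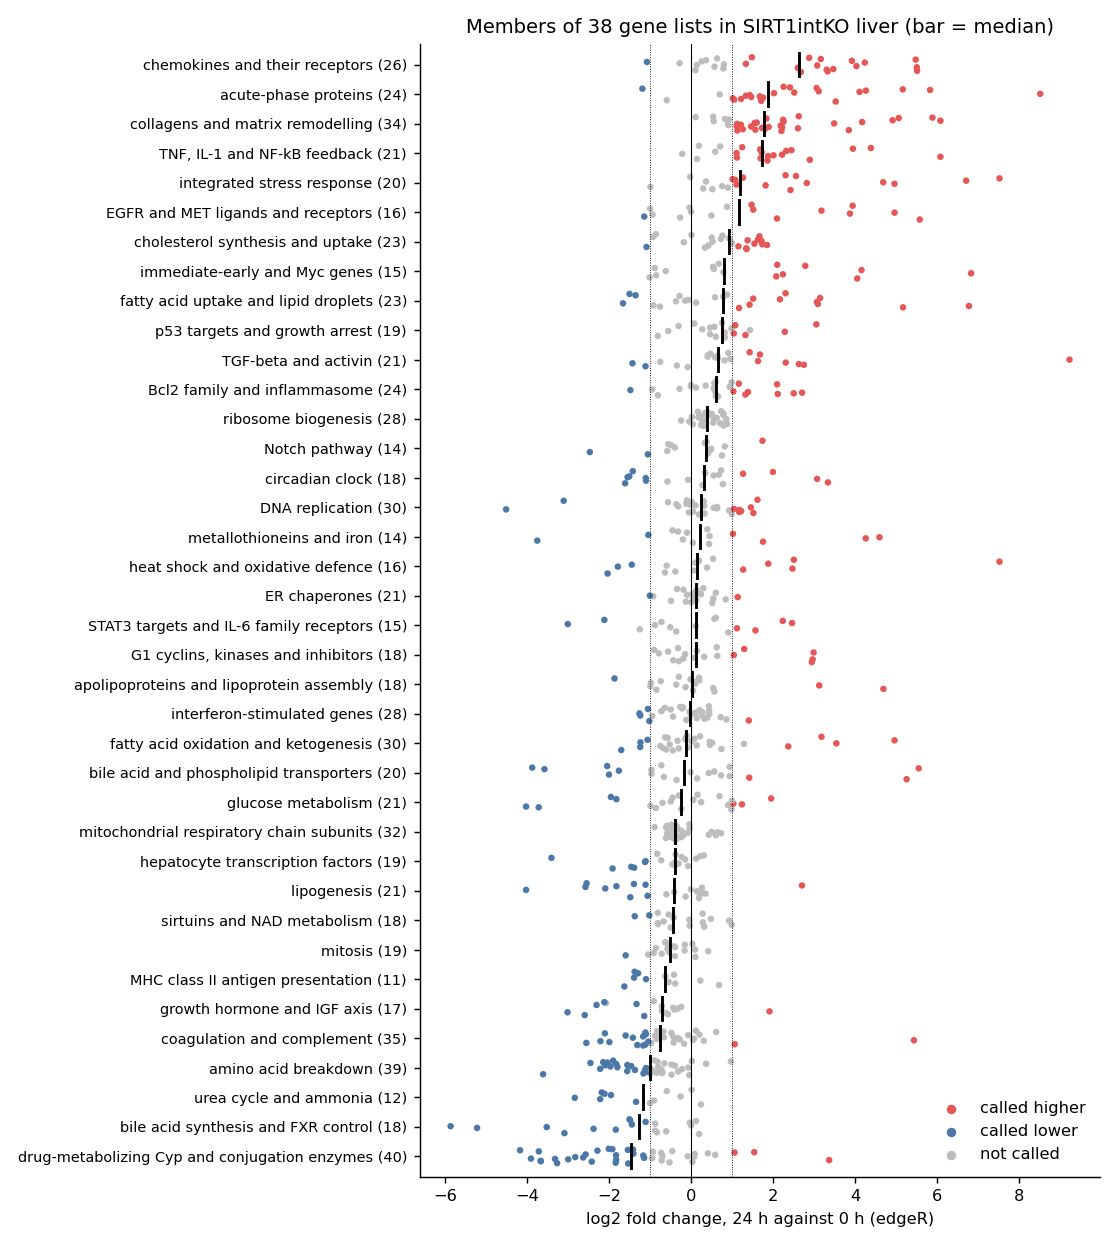
Log2 fold change, 24 against 0 hours, of each tested member of 38 gene lists in SIRT1intKO liver (horizontal axis), with 1 row a list, lists ordered by their median (black bar), points coloured by whether the gene was called higher, lower or not, and dotted lines at log2 fold changes of -1 and 1. The chemokine list has the highest median (2.64) and the drug-metabolizing list the lowest (-1.47).

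Genes of secreted coagulation and complement proteins more often fell than rose. Of 35 coagulation and complement genes, 13 fell and 2 rose (16 and 2 without replicate 5). *F7*, coagulation factor VII, ranged from 68.7 to 93.3 CPM (median 80.3) at 0 hours and 21.6 to 71.7 CPM (median 32.2) at 24 hours (log2 fold change -1.16 ± 0.21, SE, adjusted p = 3.26e-05), the groups overlapped, and the highest 24-hour value was that of replicate 5. *C9* (log2 fold change -2.21 ± 0.23, SE, adjusted p = 9.46e-09), of the membrane attack complex, and *Mbl2* (log2 fold change -2.10 ± 0.36, SE, adjusted p = 2.33e-05), a mannose-binding lectin, fell. *Cfd*, complement factor D of adipocytes, rested on replicate 3 of 24 hours at 25.1 CPM: its log2 fold change was 5.44 with that library and 2.53 (adjusted p = 0.170) without it. The adipocyte gene *Adipoq* had its highest value, 5.26 CPM, in the same library.

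Of 19 transcription factors of hepatocyte identity, none rose and 6 fell (7 without replicate 5). *Onecut1*, HNF6, ranged from 5.87 to 28.4 CPM (median 22.9) at 0 hours and 0.587 to 5.58 CPM (median 1.11) at 24 hours (log2 fold change -3.40 ± 0.55, SE, adjusted p = 1.05e-05, and -4.00 without replicate 5). *Cebpa*, which restrains hepatocyte proliferation, fell (log2 fold change -1.91 ± 0.28, SE, adjusted p = 2.23e-06). *Foxa2*, a pioneer factor, ranged from 26.8 to 68.2 CPM (median 44.8) at 0 hours and 8.29 to 48.8 CPM (median 11.3) at 24 hours (log2 fold change -1.46 ± 0.38, SE, adjusted p = 0.00205), and only replicate 5 reached into the 0-hour range. *Hnf4a*, the master regulator of the hepatocyte programme, did not pass the test (log2 fold change -0.30 ± 0.15, SE, adjusted p = 0.0944).

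Many genes that mark the ends of the liver lobule fell, among them genes beside the central vein and genes beside the portal tract. Of 16 pericentral and periportal genes, none rose, 10 fell (12 without replicate 5) and 6 were not called, and calls were not counted by zone. Their summed level ranged from 10926 to 14102 CPM at 0 hours and 2584 to 5459 CPM at 24 hours. Those that fell included the pericentral genes *Glul*, *Cyp2e1*, *Cyp1a2*, *Slc1a2* (-2.18), *Rhbg* (-2.11) and *Lgr5* (-1.23) and the periportal *Cyp2f2* (-2.82) and *Gls2* (-2.21). The summed level of 10 general hepatocyte genes, dominated by albumin, overlapped between the groups (73704 to 100930.0 CPM and 49751 to 95339 CPM).

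Clock genes differed as well, in a design in which the time of day of each collection is not given in the sources used here. Of 18, 4 rose and 6 fell. *Bmal1*, of the activating arm, ranged from 21.7 to 32.5 CPM (median 27.4) at 0 hours and 2.05 to 20.98 CPM (median 8.15) at 24 hours (log2 fold change -1.604 ± 0.38, SE, adjusted p = 0.000826). *Ciart* (log2 fold change 3.34 ± 0.71, SE, adjusted p = 0.000298) and *Dbp* (log2 fold change 3.07 ± 0.53, SE, adjusted p = 1.96e-05), driven by that arm, rose, and *Per1* rose by less (log2 fold change 1.27 ± 0.41, SE, adjusted p = 0.0112). The lowest 24-hour value of *Ciart*, 0.0938 CPM, lay below its 0-hour range of 0.199 to 0.655 CPM. Replicate 5 was the highest 24-hour library for *Bmal1* and the lowest for *Per1*, at 9.34 CPM, inside the 0-hour range of 5.84 to 14.5 CPM. Without it the log2 fold changes of *Bmal1*, *Ciart* and *Per1* were -1.97, 3.55 and 1.41.

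Genes of inflammatory mediators rose, with a wide spread among livers. Of 26 chemokines and receptors, 16 rose and 1 fell, with a median of 2.64, and of 21 genes of TNF, IL-1 and NF-kB feedback 16 rose and none fell, with a median of 1.72. *Ccl2*, which draws monocytes, ranged from 0.328 to 1.06 CPM (median 0.402) at 0 hours, 0.321 to 0.910 CPM (median 0.563) at 6 hours and 1.88 to 103 CPM (median 13.9) at 24 hours (log2 fold change 5.51 ± 0.79, SE, adjusted p = 1.74e-06). The lowest 24-hour value was in replicate 5 and the highest in replicate 2, without which the log2 fold change was 4.59. *Il1rn*, the IL-1 receptor antagonist, ranged from 0.655 to 1.95 CPM (median 1.08) at 0 hours and 13.1 to 343 CPM (median 47.6) at 24 hours (log2 fold change 6.08 ± 0.89, SE, adjusted p = 2.27e-06, and 5.09 without replicate 2). *Tnfrsf12a*, the TWEAK receptor, rose (log2 fold change 4.39 ± 0.54, SE, adjusted p = 1.67e-07). *Tnf* ranged from 0.133 to 0.621 CPM (median 0.197) at 0 hours and 0.196 to 2.06 CPM (median 0.915) at 24 hours with overlap (log2 fold change 1.69 ± 0.61, SE, adjusted p = 0.0225), and lost the call without replicate 2 or 4 of 24 hours (1.47 and 1.43) or replicate 1 or 4 of 0 hours (1.56 and 1.51).

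Interferon and antigen-presentation genes did not follow that rise. Of 28 interferon-stimulated genes, 1 rose and 4 fell, 3 in all being called without replicate 3 or 6 of 24 hours. *Isg15* did not pass the test (log2 fold change 0.45 ± 0.35, SE, adjusted p = 0.286). *Gbp2*, the 1 riser (log2 fold change 1.41 ± 0.39, SE, adjusted p = 0.00347), was under 2-fold without replicate 2 of 24 hours (0.84). Of 11 genes of MHC class II presentation, none rose and 5 fell, *Cd74*, the invariant chain, most (log2 fold change -1.62 ± 0.26, SE, adjusted p = 6.88e-06). *H2-Aa* fell by little more than 2-fold (log2 fold change -1.10 ± 0.29, SE, adjusted p = 0.00248) and was at a log2 fold change of -0.99, -0.99 or -0.87 without replicate 6 or 7 of 24 hours or replicate 6 of 0 hours, and -0.9995 without replicate 1 of 0 hours.

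Matrix genes rose without a single member falling. Of 34 collagens and remodelling genes, 27 rose, with a median of 1.77, the same count as without replicate 5. *Col1a1*, the main fibrillar collagen chain, ranged from 4.78 to 6.58 CPM (median 5.73) at 0 hours and 15.04 to 79.5 CPM (median 19.04) at 24 hours (log2 fold change 2.61 ± 0.51, SE, adjusted p = 0.000102). *Timp1*, an inhibitor of matrix proteases, rose (log2 fold change 5.89 ± 0.68, SE, adjusted p = 7.06e-08), as did *Mmp3*, stromelysin (log2 fold change 6.08 ± 1.08, SE, adjusted p = 3.23e-05, and 6.68 without replicate 2 of 0 hours). In the TGF-beta and activin list, 7 of 21 rose and 2 fell (8 and 2 without replicate 5). *Fst*, follistatin, which binds activin, rose (log2 fold change 2.75 ± 0.52, SE, adjusted p = 7.13e-05), and *Inhba*, an activin subunit, fell (log2 fold change -1.43 ± 0.29, SE, adjusted p = 0.000185).

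Of 14 Notch genes, 1 rose and 2 fell (1 and 3 without replicate 5), a share near that of all genes. *Hes6*, a repressor that antagonises HES1, fell (log2 fold change -2.47 ± 0.18, SE, adjusted p = 4.99e-11), and *Notch1* had a log2 fold change of -0.39 (adjusted p = 0.0264). Of 24 genes of the Bcl2 family and inflammasome, 8 rose and 1 fell (10 and 1 without replicate 5). The survival gene *Bcl2* rose (log2 fold change 1.33 ± 0.32, SE, adjusted p = 0.00102). *Bcl2a1d*, a copy of the A1 survival gene abundant in neutrophils, had a log2 fold change of 2.71, and 1.78 without replicate 2 of 24 hours, the library with the most neutrophil transcripts.

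Markers of neutrophils, monocytes and macrophages mostly rose, and those of resident cells were mixed. Of 16 neutrophil markers, 12 rose and none fell when every gene with a count was tested, and 11 of the 16 had enough counts for the main test. The summed level of the list ranged from 5.06 to 23.8 CPM at 0 hours and 26.98 to 1018 CPM at 24 hours, with replicate 2 of 24 hours highest and replicate 5 lowest. *S100a8*, a calprotectin subunit, ranged from 0.723 to 4.97 CPM (median 2.02) at 0 hours and 5.07 to 375 CPM (median 29.7) at 24 hours (log2 fold change 5.10 ± 0.89, SE, adjusted p = 2.52e-05, and 3.72 without replicate 2). *Il1r2*, the decoy IL-1 receptor of neutrophils, rose (log2 fold change 6.12 ± 0.81, SE, adjusted p = 5.60e-07). The granule genes *Elane* and *Mpo* were not among those with enough counts. How far leukocyte number bears on the chemokine and matrix values above was not tested.

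For monocytes and macrophages, 12 of 16 rose and none fell. The summed level of the list was 1905 to 2537 CPM at 0 hours, 4058 to 5458 CPM at 6 hours and 2541 to 4335 CPM at 24 hours. The 24-hour sums were thus just clear of 0 hours and mostly below 6 hours. How far single members or other cell types set that sum was not tested. *Chil3*, a chitinase-like protein of recruited myeloid cells, ranged from 0.0592 to 0.248 CPM (median 0.131) at 0 hours and 5.40 to 139.6 CPM (median 51.4) at 24 hours (log2 fold change 8.77 ± 0.91, SE, adjusted p = 1.04e-08). *Ly6c2* of inflammatory monocytes ranged from 0.124 to 0.394 CPM (median 0.269) at 0 hours and 0.188 to 8.66 CPM (median 1.63) at 24 hours (log2 fold change 3.09 ± 0.63, SE, adjusted p = 0.000191, and 2.20 without replicate 2 of 24 hours). Among resident Kupffer cell genes, 3 of 9 fell (*Clec4f*, *Folr2* and *C6*), 1 rose and 5 were not called. The summed level was 502 to 675 CPM at 0 hours and 220.2 to 360.5 CPM at 24 hours, but much of it was *C6*, a complement gene that hepatocytes also express. Without *C6*, a sum taken after the values were seen, the groups overlapped at 169.9 to 302 CPM and 115 to 319 CPM. That sum still held *Marco*, at 1.38 to 7.51 CPM at 0 hours and 12.998 to 177 CPM at 24 hours, highest in replicate 2. No sum without both genes was taken, so the overlap does not show that Kupffer cell genes were unchanged. Of the 9 tested, 8 had a negative log2 fold change and 1 a positive one. *Clec4f*, found on Kupffer cells, ranged from 51.2 to 98.8 CPM (median 68.6) and 12.6 to 28.7 CPM (median 19.4) (log2 fold change -1.83 ± 0.28, SE, adjusted p = 5.33e-06). *Marco*, a scavenger receptor shared with other macrophages, was the one that rose (log2 fold change 4.49 ± 0.54, SE, adjusted p = 1.22e-07).

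Lymphocyte markers were low throughout. Of 18, 5 had enough counts for the main test, and genes this low may pass its filter only through the libraries in which they are higher. When every gene with a count was tested, 10 of the 18 fell and none rose, and the summed level of the list was 8.94 to 17.6 CPM at 0 hours and 1.79 to 3.01 CPM at 24 hours. *Cd4*, the co-receptor of helper T cells, fell most, from a median of 4.11 CPM to 0.120 CPM (log2 fold change -5.14 ± 0.46, SE, adjusted p = 1.20e-09). The lead gene of the list, *Cd3e*, was too low for the main test. It ranged from 0.118 to 0.398 CPM at 0 hours and 0 to 0.422 CPM at 24 hours, with overlap, so the fall of *Cd4* does not stand for T cells in general. Of 16 sinusoidal endothelial markers, 5 fell and 2 rose, and the summed level was 240.0 to 363 CPM and 125 to 249 CPM. *Stab2*, a scavenger receptor of these cells, fell (log2 fold change -1.22 ± 0.19, SE, adjusted p = 4.90e-06), and *Kdr*, VEGF receptor 2, fell (log2 fold change -1.70 ± 0.28, SE, adjusted p = 9.35e-06), whereas *Lyve1*, the hyaluronan receptor, rose (log2 fold change 1.57 ± 0.42, SE, adjusted p = 0.00249). Of 14 stellate cell and fibroblast markers, 2 rose and 1 fell. *Lrat*, which stores vitamin A in stellate cells, had a log2 fold change of -1.07 and -0.96 without replicate 4 of 0 hours, and *Tagln*, of contractile cells, rose (log2 fold change 1.597 ± 0.48, SE, adjusted p = 0.00700).

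Biliary and progenitor markers rose in 10 of 16 with none lower, and the summed level was 396 to 543 CPM at 0 hours and 1694 to 3841 CPM at 24 hours without overlap. *Cldn4*, a tight-junction protein of biliary epithelium, rose (log2 fold change 3.24 ± 0.58, SE, adjusted p = 3.51e-05), and so did *Sox9* (log2 fold change 1.74 ± 0.43, SE, adjusted p = 0.00133) and *Afp*, alpha-fetoprotein (log2 fold change 3.20 ± 0.41, SE, adjusted p = 3.34e-07). *Krt8* and *Krt18* of this list are also keratins of hepatocytes (2.81 and 2.54). The summed level includes them and does not stand for biliary or progenitor cells alone, and no sum without them was taken. *Krt19*, the keratin confined to bile ducts in resting liver, ranged from 0.614 to 5.46 CPM (median 1.64) at 0 hours and 1.28 to 8.22 CPM (median 4.03) at 24 hours and did not pass the test (log2 fold change 1.08 ± 0.50, SE, adjusted p = 0.0693). It passed without replicate 6 of 0 hours (1.66, adjusted p = 0.00852) and without replicate 3 of 24 hours (1.25, adjusted p = 0.0385). *Epcam*, the other defining duct marker, was not called (log2 fold change 0.49 ± 0.40, SE, adjusted p = 0.312).

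Markers of blood and of neighbouring tissue moved in both directions. Of 6 red blood cell genes, 1 rose and 2 fell (5 in all without replicate 5 of 0 hours), and *Hba-a1*, alpha globin, did not pass the test (log2 fold change 0.64 ± 0.38, SE, adjusted p = 0.165). Of 8 platelet genes listed, 3 had enough counts, which genes this low may reach only through the libraries in which they are higher. Of the 3, 2 rose, *Pf4* more (log2 fold change 3.46 ± 0.52, SE, adjusted p = 3.26e-06). The summed level of the platelet list was 2.67 to 4.98 CPM at 0 hours and 3.47 to 9.99 CPM at 24 hours, with overlap. Of 15 listed genes of pancreas, gut and fat, 4 had enough counts, 2 rose and 2 fell, and their sum was 68.5 to 85.0 CPM at 0 hours and 48.6 to 324 CPM at 24 hours, the highest being replicate 2. No transcript of the 4 tested from the Y chromosome was called, in animals labelled male by the study's methods (1 was called without replicate 5 of 24 hours, or without replicate 2 or 4 of 0 hours).

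**Figure D4:**
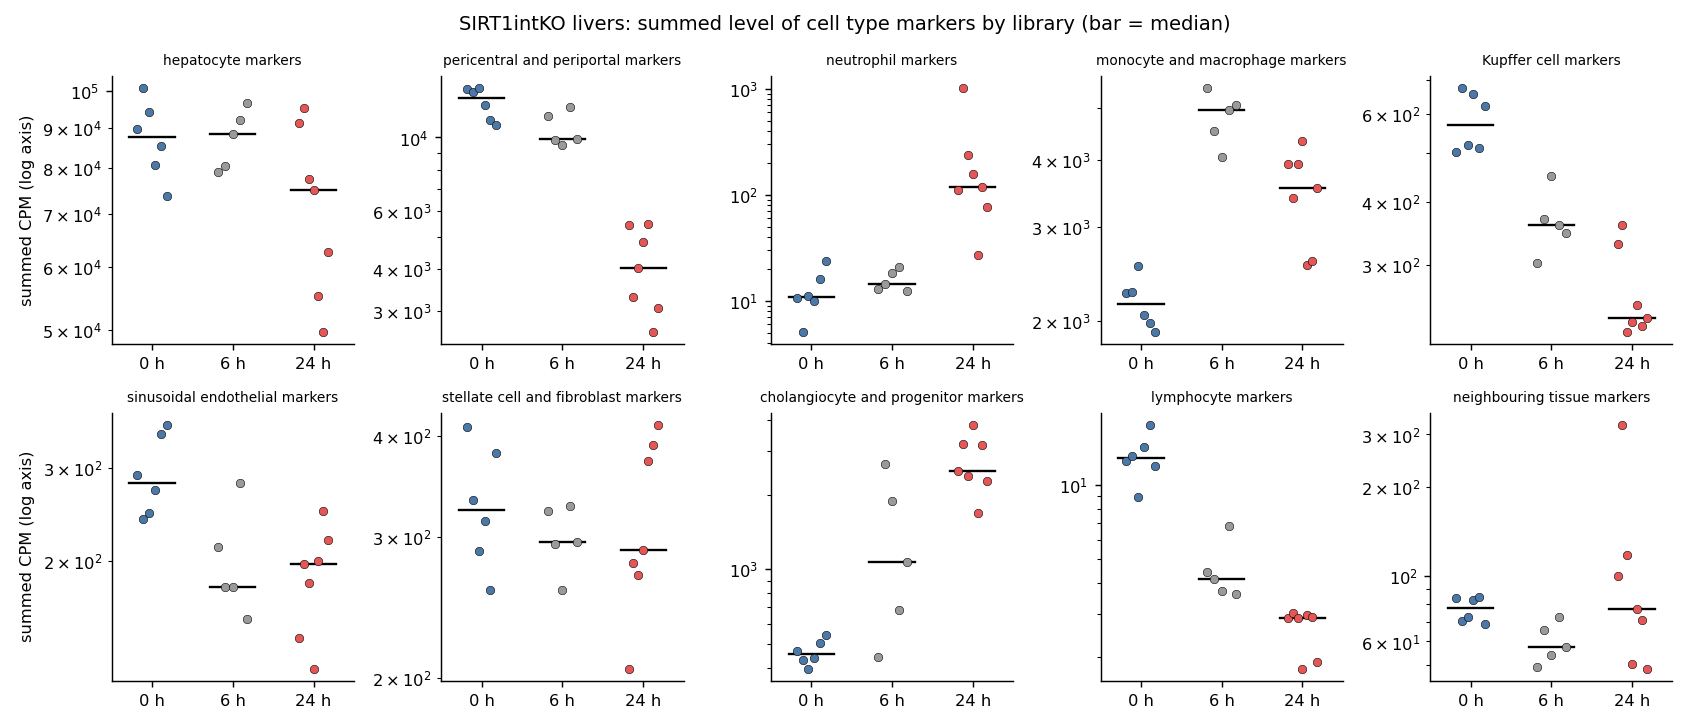
Summed CPM of 10 lists of cell type markers on a log axis for each SIRT1intKO liver by hours after PHx (0, 6 and 24), each point 1 library and bars at the group median. Neutrophil sums are 5.06 to 23.8 CPM at 0 hours and 26.98 to 1018 CPM at 24 hours, while lymphocyte sums at 24 hours lie below every 0-hour library, as do Kupffer sums. The Kupffer sum holds the complement gene *C6*. A sum without *C6* that keeps *Marco*, which rose, overlaps between 0 and 24 hours and is not plotted.

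Part of the 24-hour difference was present in the livers of 6 hours and part was not. Between 24 and 6 hours, 1588 of 14980 genes were called (10.6%), 1003 higher and 585 lower at 24 hours, and the 24-hour libraries are the same as in the comparison with 0 hours. Of the acute-phase genes, 1 was higher and 3 lower than at 6 hours, with a median difference of -0.58 on the log2 scale. By contrast, 17 of 26 chemokine genes, 19 of 34 matrix genes, 10 of 11 neutrophil genes and 12 of 23 cholesterol genes were higher at 24 than at 6 hours, and none of them was lower. The 11 neutrophil genes were those of 16 listed with enough counts, which low genes may reach only through the libraries in which they are higher. The summed level of all 16 was 12.4 to 20.9 CPM at 6 hours and 26.98 to 1018 CPM at 24 hours. *Ccl2* had a median of 0.563 CPM at 6 hours and 13.9 CPM at 24 hours, a log2 difference of 5.57 ± 0.86 (SE, adjusted p = 2.83e-05).

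Genes that fell also differed in time. Amino acid breakdown and urea cycle genes were mostly near their 0-hour level at 6 hours, with median log2 differences from 0 hours of -0.38 and -0.09, and from 6 to 24 hours 20 of 39 and 8 of 12 fell. *Glul* had medians of 824, 619 and 85.0 CPM at 0, 6 and 24 hours (24 against 6 hours -2.68 ± 0.39, adjusted p = 1.51e-05). *Cyp7a1* was already low at 6 hours, with medians of 28.7, 0.566 and 0.0602 CPM. Its log2 difference of 24 from 6 hours was 0.20 (adjusted p = 0.915) with replicate 5 and -3.27 ± 1.31 (SE, adjusted p = 0.0540) without it. DNA replication genes stood below their 0-hour level at 6 hours (median -0.55) and 8 of 30 were higher and 1 lower at 24 than at 6 hours. *Ccnd1* was 1.29 ± 0.47 higher on the log2 scale at 24 than at 6 hours (adjusted p = 0.0378). Interferon-stimulated genes had a median of -0.79 at 6 hours against 0 hours, and 9 of 28 were higher at 24 than at 6 hours. Clock genes went the other way, with 7 of 18 lower and 2 higher at 24 than at 6 hours.

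Whether a change from 0 to 24 hours differed between SIRT1intKO and WT mice was asked with an interaction term, over the 4 groups concerned. With all libraries, 1 of 14980 genes was called (0.00668%), and the unadjusted p lay under 0.05 for 1904, whereas DESeq2 called 96 on the same libraries and edgeR with the replicate block called 0. The gene was *Gskip*, which encodes a protein that binds glycogen synthase kinase 3 beta. It ranged from 5.83 to 7.69 CPM (median 6.47) at 0 hours and 9.01 to 23.9 CPM (median 15.5) at 24 hours in SIRT1intKO livers, and from 6.03 to 8.78 CPM (median 6.76) and 5.26 to 7.27 CPM (median 6.63) in WT livers. All 7 SIRT1intKO livers at 24 hours were above all 6 of 0 hours, and the WT groups overlapped, with log2 fold changes of 1.33 and -0.12. The interaction was 1.44 ± 0.23 on the log2 scale (SE, edgeR adjusted p = 0.0107). Its adjusted p was 0.0851 without replicate 2 of WT at 24 hours, 0.0595 with only the 4 groups in the fit, 0.0517 with the replicate block and 1 when tested against a 2-fold change (glmTreat).

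The count of such genes also moved with single libraries. Without replicate 5 of SIRT1intKO at 24 hours, 205 of 14939 genes were called for the interaction (1.37%), 93 with a more positive and 112 with a more negative change in SIRT1intKO mice. Leaving out any other single library of the 4 groups (22 fits) gave between 0 and 75 genes. The 75 came without replicate 1 of WT at 24 hours, and the next highest count was 3. The WT livers at 24 hours were themselves divided: over the 2354 genes called in WT, their libraries moved 158, 176, 51.7 and 45.9% as far as the rest of their group. The count of genes whose change differs by genotype therefore depends on the tool and on single libraries of both genotypes.

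The fit without replicate 5 was chosen after the values were seen. It drops the SIRT1intKO library that moved least (54.6%) and keeps replicates 3 and 4 of WT, which moved 51.7 and 45.9%. Its contrast therefore leans toward larger changes in SIRT1intKO livers. Without replicate 5, the genes with the most positive interaction included chemokines, and their values with all libraries did not pass the test. *Ccl2* had an interaction of 5.41 ± 1.02 (SE, edgeR adjusted p = 0.00535) without that library and 5.20 (adjusted p = 0.0640) with all. At 24 hours it ranged from 1.88 to 103 CPM (median 13.9) in SIRT1intKO and 0.946 to 5.84 CPM (median 1.09) in WT livers. *Cxcl10* (5.03, adjusted p = 0.00535), *Ccl7* (5.84, adjusted p = 0.0110), *Acod1*, the itaconate-producing enzyme of activated macrophages (6.09, adjusted p = 0.0120), *Clec4e*, a lectin receptor of myeloid cells (4.68, adjusted p = 0.0359), and the glutathione transferase *Gsta13* (4.92, adjusted p = 0.00535) completed the highest 6. Of 26 chemokine genes, 9 were called higher and none lower in that fit, against 0 of 26 with all libraries, where 14 had an unadjusted p under 0.05.

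The lowest 6 included both bile acid enzymes. *Cyp7a1* had an interaction of -6.95 ± 1.27 (SE, edgeR adjusted p = 0.00535) without replicate 5 and -3.49 (adjusted p = 0.240) with it, and *Cyp8b1* of -6.42 ± 1.12 (adjusted p = 0.00416) and -3.38 (adjusted p = 0.297). In WT livers at 24 hours *Cyp8b1* was at 0.246, 0.800, 147 and 159 CPM and *Cyp7a1* at 0, 0.0571, 15.2 and 13.1 CPM. Replicates 1 and 2 of WT were thus as low as SIRT1intKO livers, replicates 3 and 4 were not, and replicate 5 of SIRT1intKO, at 45.3 and 5.54 CPM, lay between. *Dnai1*, an axonemal dynein chain (-6.24, adjusted p = 0.00535), *Prok1*, a secreted prokineticin (-5.81, adjusted p = 0.0114), *Serpina9* (-4.95, adjusted p = 0.00268) and *Hsd3b5* (-4.61, adjusted p = 0.00879) were the others. In that fit, 5 of 35 coagulation and complement genes and 3 of 19 hepatocyte transcription factors were called lower, with none higher. So were 3 of 12 urea cycle and ammonia genes, also with none higher. Of 21 genes of TNF, IL-1 and NF-kB feedback, 4 were called higher and none lower.

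**Figure D5:**
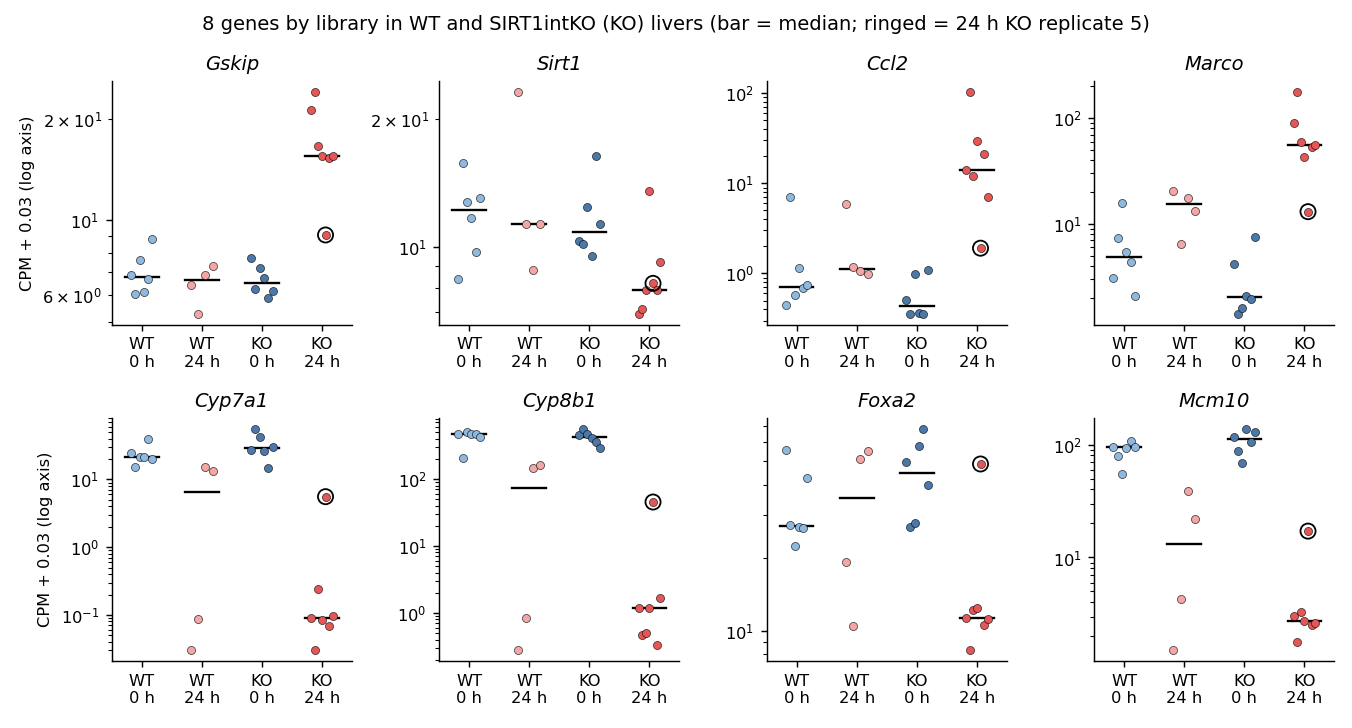
CPM plus 0.03 on a log axis of 8 genes in SIRT1intKO and WT livers at 0 and 24 hours after PHx, each point 1 library and replicate 5 of SIRT1intKO at 24 hours ringed. *Gskip* at 24 hours is 9.01 to 23.9 CPM in SIRT1intKO and 5.26 to 7.27 CPM in WT livers, whereas the WT values of *Cyp7a1* and *Cyp8b1* at 24 hours form a low pair and a high pair.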

How the data were processed

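Polyadenylated RNA of whole liver was measured in 34 libraries (stranded, paired-end). Per the labels, the authors aligned reads with STAR and quantified genes with Salmon on GRCm39, and they deposited merged expected counts per gene. The strand setting is not given in the sources used here. Of the values, 4.97% were not whole. They were rounded, 1316 symbols lost from the table were restored from gene identifiers, and 1 column that matches no sample was not used. Genes passing filterByExpr (14980 of 78298) were tested in R 4.3.3 with edgeR 4.0.16 (TMM, quasi-likelihood F test, 6 group means over all 34 libraries, Benjamini-Hochberg), a gene being called at an adjusted p under 0.05 and a log2 fold change beyond 1. DESeq2 1.42.0, other scalings, filters and fold tests, fits of fewer groups, a replicate block and leaving out each library were alternatives, and the scripts were tested on simulated data. Groups came from the labels, and no gene list was tested as a set. The 51 lists hold 983 genes, all of them matched. Depth limits low genes: a count of 0 over a group is given with a floor of 3 counts, 0.0322 CPM at 0 hours and 0.0206 CPM at 24 hours, and such bounds and the 95% exact intervals of count ratios cover counting error only.

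The members and gene lists were chosen with earlier results of these data known. Genes were named by rule: *Sirt1*; the lead gene of each list; the 12 highest and 12 lowest called genes with an established symbol, a mean of at least 1 CPM over the 13 libraries and no overlap between groups; each list's called member with the largest change; and for the interaction the 6 highest and 6 lowest called. The rule for the interaction was also applied to the fit without replicate 5 of SIRT1intKO at 24 hours. Other members of lists were named after their values were seen, and some genes are not reported here. Promoters came from RefSeq (GRCm38.p6), and a promoter was found for 10626 of the tested genes.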

Additional observations from a re-analysis of the deposited data

Results flagged for a closer look

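Within the groups of 6 and 7 SIRT1intKO libraries, a library was picked out when its gap to the nearest other value, over the range of the group, exceeded Dixon's critical value (95%). Over 242 such tests, of named genes and summed marker levels, 49 values were picked out, and 37 of them were at 24 hours. A chance rate of about 1 in 20 holds for independent, normally distributed values. CPM of related genes need not be so, and no conclusion is drawn from the number picked out. At 0 hours the values of *Slc7a11*, *Cacna1b* and *Areg* rest on 1 count each. Values are in CPM.

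Replicate 5 of 24 hours accounted for 15 of them and lay toward the 0-hour level in each. It was the highest 24-hour library for *Mcm10* (17.1), *Srebf1* (55.6), *Cyp7a1* (5.54), *Cyp8b1* (45.3), *G6pc1* (107), *F7* (71.7), *Foxa2* (48.8), *Hsd3b5* (7.79), *Tbx3os1* (1.41), *Serpina9* (0.704), *Lifr* (105), *Afmid* (18.9), *Onecut1* (5.58) and *Igfals* (64.7), and the lowest for *Abcb1a* (4.97).

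Replicate 2 of 24 hours accounted for 14. It was highest for the summed neutrophil markers (1018) and the neutrophil gene *S100a8* (375), for the myeloid and cytokine genes *Ly6c2* (8.66), *Ccl2* (103), *Il1rn* (343) and *Bcl2a1d* (4.70), for *Isg15* (30.01), *Gbp2* (22.2) and *H2-Aa* (23.9), for the metallothioneins *Mt2* (4429) and *Mt4* (8.95), for *Igf1* (785) and *Ndufa4* (1024), and for the summed neighbouring tissue markers (324).

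The other 24-hour values were *Sirt1* (13.5) and *Socs3* (179) in replicate 4, *Cpt1a* (361) and *Ces2b* (0.181) in replicate 1, *Cfd* (25.1) and *Adipoq* (5.26) in replicate 3, *Trib3* (51.7) in replicate 6 and *Epor* (0.524) in replicate 7. At 0 hours they were *Socs3* (174), *Mt1* (575) and *Mt2* (366) in replicate 3, *Apoa4* (231) in replicate 2, *Hba-a1* (206), *Slc7a11* (0.0655), *Ttr* (8439) and the summed platelet markers (4.98) in replicate 5, and *Mki67* (2.36), *Krt19* (5.46), *Cacna1b* (0.0621) and *Areg* (0.0621) in replicate 6.

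The change of *Gskip* from 0 to 24 hours differed between the genotypes by 1.44 on the log2 scale (edgeR interaction, adjusted p = 0.0107), being larger in SIRT1intKO livers. The call was lost without replicate 2 of WT at 24 hours (adjusted p = 0.0851), with only the groups of the comparison in the fit (0.0595), with the replicate block (0.0517) and under glmTreat (1).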

How the results depend on the processing

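Leaving out single libraries gave 3216 to 3729 called genes for 24 against 0 hours (1629 to 1906 higher, 1558 to 1823 lower), 1321 to 1899 for 24 against 6 hours and 0 to 205 for the interaction. A filter of 10 counts in every library tested fewer genes and called 1664 (851 higher, 813 lower) and 720 against 6 hours. Dropping the fold threshold called 7520 (3925 and 3595) and 4138, and testing against 2-fold (glmTreat) called 1465 (802 and 663), 261 and 0. The interaction had 96 genes with DESeq2, 8 when every gene with a count was tested, and 0 with the replicate block or glmTreat (1618 and 332 at an unadjusted p under 0.05). With only the groups of the comparison in the fit its 1 gene was not *Gskip* (1.43, adjusted p = 0.0595), and the cause was not tested. *Gskip* also lost the call under glmTreat (adjusted p = 1) and the replicate block (1.49, adjusted p = 0.0517).

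Replicate numbers did not pair the libraries: same-numbered libraries of 24 and 0 hours correlated between -0.0747 and 0.111 in their deviations, and 1 of 6 correlated best with its own number. The replicate block called 3298 genes (1667 and 1631), and 1291 against 6 hours, with *Cdkn1a* (0.98) and *Adipoq* (6.51, adjusted p = 0.0515) losing the call.

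Signs changed for 3 uncalled genes: *Tat* with upper-quartile scaling (-0.000702) and over fits leaving out single libraries (-0.12 to 0.23), *Apoa1* over such fits (-0.082 to 0.17) and *Ndufa4* over such fits (-0.052, without replicate 2 of 24 hours, to 0.69). Under glmTreat 23 of the genes chosen by rule lost the call. Depth limits genes near 0 counts, whose ratios are bounds.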
